A study of Mus musculus with 6 samples.

Results

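The 9 genes described here are Tph1 and Ddc, which make serotonin from tryptophan, Gch1, Pts, Spr, Pcbd1, Pcbd2 and Qdpr, which make and regenerate the cofactor tetrahydrobiopterin (BH4), and Ido1, which opens the breakdown of tryptophan to kynurenine. They were chosen by symbol for these roles, and all 9 were found among the 25865 genes of the expression table. The samples were ILC2s (group 2 innate lymphoid cells, tissue-resident lymphocytes that secrete type 2 cytokines) sorted from mouse large intestine (strain C57BL/6) and grown for 5 days in IL-33, IL-25, IL-7 and IL-2, each at 10 ng/mL. The groups were 3 samples exposed to toyocamycin for 16 h (toyocamycin samples) and 3 exposed to vehicle (Control samples). Toyocamycin, a nucleoside antibiotic that resembles adenosine, blocks the RNase of the stress sensor IRE1 and also ribosomal RNA processing. No source used here gives its dose or says whether replicates came from separate animals or cultures, and the spread behind each p-value may then be technical.

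TPH1 hydroxylates tryptophan in the rate-limiting step of serotonin synthesis outside the brain, and DDC then removes the carboxyl group. TPH1 is best known in enterochromaffin cells of the gut and in mast cells, and has also been described in activated mouse ILC2s. Its reaction consumes BH4, which GCH1, PTS and SPR build from GTP and which the dehydratases PCBD1 and PCBD2 and the reductase QDPR restore after use. IDO1 draws on the same amino acid, and in immune cells it is best known from dendritic cells and macrophages.

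Values are normalised read counts, that is, the reads of a gene over a size factor of its sample, with no correction for gene length. The recovered totals were 22.3 M to 36.7 M reads in toyocamycin samples and 25.5 M to 27.0 M reads in Control samples. A level of 3 reads, taken as the limit of detection, is on average 3.38 normalised reads in toyocamycin samples and 2.66 in Control samples. Of 11 ILC2 markers (Gata3, Rora, Il1rl1, Il17rb, Klrg1, Il7r, Areg, Il5, Il13, Icos and Thy1), all 11 were above this limit in both groups. The limit is low, and 4 of 5 epithelial, 3 of 6 T cell and 3 of 4 B cell markers were also above it in both groups. Being above it therefore does not establish the ILC2 label. The levels of the ILC2 markers differed between groups: Gata3, Rora, Il1rl1 and Icos were higher with toyocamycin, Il17rb, Klrg1, Il7r, Areg, Il5 and Il13 were lower, and Thy1 did not pass. The Il17rb call ended with DESeq2 (adjusted p = 0.0765). Rora was 13.1-fold higher and Il13 6.95-fold lower. Of 9 enteroendocrine markers, 8 were at or below the limit in both groups and 5 were at 0 in every sample, and the summed level was 10.6 to 14.4 in toyocamycin samples and 9.65 to 14.0 in Control samples. Of 11 mast cell markers, 7 were at or below the limit in both groups. Without Kit, which ILC2s can also express, their sum was 12.1 to 48.9 in toyocamycin samples and 44.8 to 72.0 in Control samples. Kit alone had 43106 to 46744 in toyocamycin samples and 29276 to 30741 in Control samples. Of 6 mast cell markers tested, Kit was higher with toyocamycin, Cpa3 (1.45 ± 1.34 in toyocamycin samples, 6.80 ± 3.10 in Control samples) and Hdc (21.9 ± 14.3 in toyocamycin samples, 42.6 ± 7.94 in Control samples) were lower, and 3 did not pass. Cpa3 rests on 2, 2 and 0 reads in toyocamycin samples and 8, 4 and 11 reads in Control samples, and the Hdc groups overlap. With DESeq2 neither Cpa3 (adjusted p = 0.153) nor Hdc (adjusted p = 0.0823) was called. Of 6 T cell markers, Cd3g was higher with toyocamycin and Cd3e (6.13 ± 3.25 in toyocamycin samples, 35.2 ± 0.778 in Control samples) and Cd3d lower. The calls of Cd3g and Cd3d ended with DESeq2 (adjusted p = 0.0556 and 0.0963). Of 4 B cell markers, Cd79b was lower (183.7 ± 16.3 in toyocamycin samples, 390.5 ± 53.4 in Control samples). None of 5 epithelial markers passed, and Epcam had 128.9 ± 11.1 in toyocamycin samples and 133.9 ± 16.2 in Control samples. Beside the calls in these marker lists, 32.8% of all genes tested were called higher and 33.1% lower, 65.9% in all (limma, adjusted p under 0.05). The part of these cell types in the levels of Tph1 and Ido1 was not tested.

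Toyocamycin-treated ILC2s had far less Tph1 and Ido1 transcript than Control ILC2s, moderately less Pcbd2 and Spr, and slightly less Pts and Gch1. Ddc and Pcbd1 were barely detected in either group, and Qdpr did not pass the test. Of the 9 genes, 8 had a mean of at least 1 normalised read and were tested, and 6 of them were lower with toyocamycin and 0 higher at an adjusted p under 0.05 (limma, Benjamini-Hochberg over all 16223 genes tested). Over all genes tested, 33.1% were called lower and 32.8% higher, 65.9% in all. With edgeR and with DESeq2 on the recovered reads the same number, 6, was lower, where 41.2% and 29.2% of all genes those tools tested were called lower. The median log2 change of the 8 tested genes was −0.87, where that of all genes tested was −0.03. In 6 of the 8 genes the 3 toyocamycin samples lay below all 3 Control samples, which was so for 34.9% of all genes tested (69.1% in either direction). In bulk RNA, fewer cells that express a gene and less RNA per cell cannot be told apart.

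**Figure D1:**
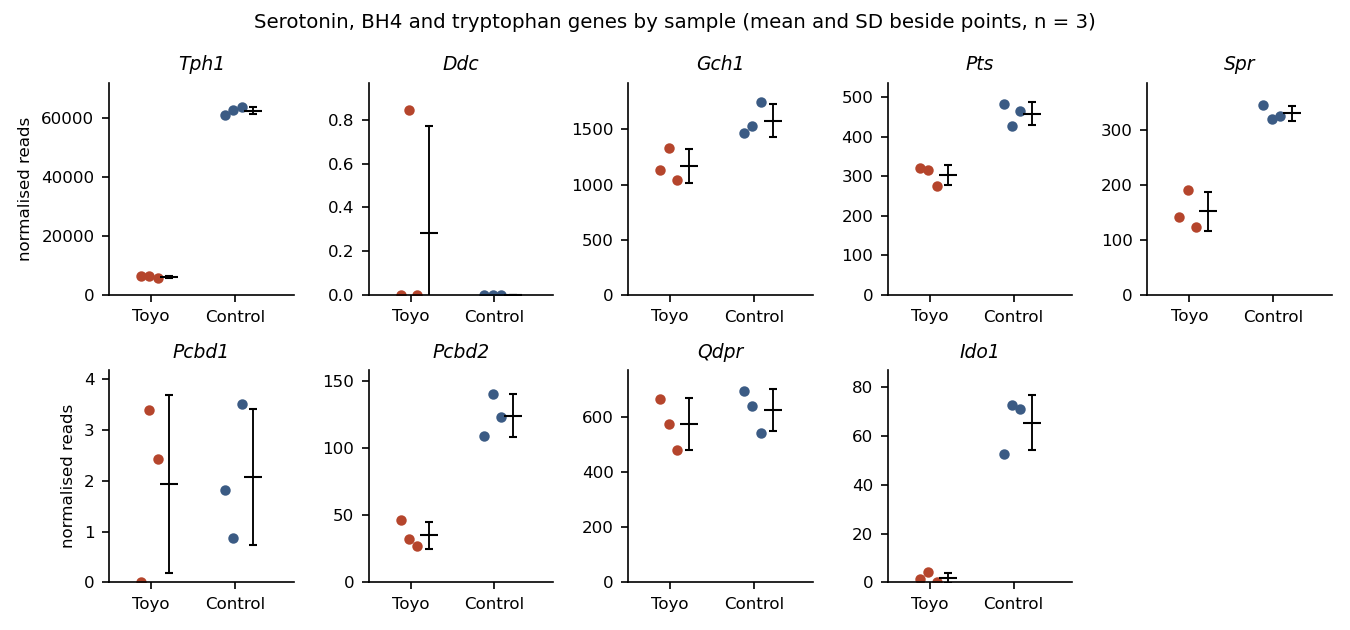
Normalised reads (y axis, from 0, a scale of its own for each gene) of the 9 genes in toyocamycin (Toyo, red) and Control (blue) samples, replicates 1 to 3 from left to right, with the mean and SD (n = 3) beside the points. The groups are apart for Tph1, Gch1, Pts, Spr, Pcbd2 and Ido1 and overlap for Ddc, Pcbd1 and Qdpr.

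Tph1 (chromosome 7, 46644641 to 46672537, minus strand, GRCm38) had 6388, 6309 and 5778 normalised reads in toyocamycin samples, against 61074, 62773 and 63605 in Control samples. The groups were far apart and the samples within each were close. Tph1 thus fell 10.1-fold, with a mean of 6158 ± 331 in toyocamycin samples and 62484 ± 1290 in Control samples (SD, n = 3 each; log2 change −3.34, SE 0.051, limma adjusted p = 8.93e-21). Its transcripts took 0.0206% ± 0.0009 of all assigned reads in toyocamycin samples and 0.267% ± 0.0029 in Control samples. Per kilobase of exon, Tph1 ranked 1478 with toyocamycin and 39 in Control among 23398 genes with a length in GENCODE M21. No exon of another annotated gene overlaps its exons, and 0.0958% of its 50-base words occur in transcripts of other genes.

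RefSeq gives Tph1 a pair of alternative starts, and reads per gene do not show which of them was in use. The 250 bases before each start are shown for this gene because it carries the main difference, and those of Gch1 and Qdpr because they stand at both ends of the cofactor pathway, 1 lower with toyocamycin and 1 not called. All are from RefSeq on GRCm38.p6, read on the strand of the gene, 5′ to 3′. Capitals mark each match to a GATA motif (the letters GATA with A or T before and A or G after them), a CCAAT box (CCAAT) or a TATA box (TATAAA), searched on both strands.
Tph1, outer start, chr7:46672538-46672787, minus strand: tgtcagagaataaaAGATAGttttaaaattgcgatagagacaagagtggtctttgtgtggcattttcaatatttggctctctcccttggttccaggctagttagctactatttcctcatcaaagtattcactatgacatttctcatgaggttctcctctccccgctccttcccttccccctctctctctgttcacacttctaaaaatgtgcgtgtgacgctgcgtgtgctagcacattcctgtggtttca
Tph1, inner start, chr7:46667378-46667627, minus strand: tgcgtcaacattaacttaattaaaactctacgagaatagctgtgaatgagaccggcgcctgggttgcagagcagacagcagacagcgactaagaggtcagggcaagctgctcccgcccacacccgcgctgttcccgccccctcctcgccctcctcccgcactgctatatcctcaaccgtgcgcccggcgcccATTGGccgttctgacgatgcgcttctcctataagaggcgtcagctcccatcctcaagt
Gch1, chr14:47189414-47189663, minus strand: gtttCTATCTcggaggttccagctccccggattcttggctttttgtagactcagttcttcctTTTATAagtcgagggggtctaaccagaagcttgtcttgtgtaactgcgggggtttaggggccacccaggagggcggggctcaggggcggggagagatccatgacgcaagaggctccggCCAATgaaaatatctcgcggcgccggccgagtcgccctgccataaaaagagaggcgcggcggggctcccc
Qdpr, chr5:45450230-45450479, minus strand: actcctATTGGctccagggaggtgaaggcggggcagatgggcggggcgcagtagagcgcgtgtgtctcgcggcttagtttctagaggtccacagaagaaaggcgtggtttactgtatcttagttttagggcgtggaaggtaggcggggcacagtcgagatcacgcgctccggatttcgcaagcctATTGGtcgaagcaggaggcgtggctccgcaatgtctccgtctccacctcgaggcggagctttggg
The outer Tph1 window holds a GATA match 236 bases before the start and no CCAAT match, while the inner window holds a CCAAT match 58 bases before the start and no GATA match. Gch1 holds all 3 kinds, with CCAAT at 70 bases, and Qdpr holds CCAAT matches at 244 and 65 bases. Among 32851 windows of this length in the table, 26.5% hold a GATA match, 33.8% a CCAAT match and 12.4% a TATA match, so such matches are common. The letters TGACGTGG of the unfolded protein response element, bound by XBP1 and ATF6, are in 0 of the 10 windows found for 8 of the 9 genes and in 0.563% of all windows. Because the match is this rare, its absence from 10 windows cannot show whether XBP1 or ATF6 acts on these genes. The inner Tph1 window has 58.8% G and C with 19 CpG dinucleotides and the outer one 43.6% with 5, where the median window has 52.4% and 6.

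Ddc, which encodes the decarboxylase of the next step, had 0, 1 and 0 reads in toyocamycin samples and 0, 0 and 0 reads in Control samples. It was not detected at this depth in either group. If reads are independent, a count of 0 allows up to 2.66 normalised reads on average in Control samples. The bound is higher if mates of a read pair were counted separately. Ddc was not tested. Tph2, the TPH gene of neurons, had a mean of 0.88 in toyocamycin samples and 0 reads in every Control sample.

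In BH4 synthesis, Gch1 encodes GTP cyclohydrolase, the rate-limiting enzyme. Gch1 had 1129, 1334 and 1042 normalised reads in toyocamycin samples, against 1469, 1526 and 1746 in Control samples. The highest toyocamycin sample lay just below the lowest Control sample, and Gch1 fell 1.35-fold (1168 ± 150 against 1580 ± 146; log2 change −0.44, SE 0.086, adjusted p = 0.000123). Pts, which encodes the synthase that follows, had 320.9, 315.9 and 274.4 in toyocamycin samples, against 482.9, 427.4 and 464.3 in Control samples. Pts fell 1.51-fold (log2 change −0.59, SE 0.11, adjusted p = 8.68e-05), with no overlap, but its call ended with quantile normalization (−0.25, adjusted p = 0.0512). Spr, which encodes sepiapterin reductase and closes the synthesis, had 141.3, 191.4 and 123.8 in toyocamycin samples, against 347, 320.3 and 326.5 in Control samples. Every toyocamycin sample was well below the Control samples, which differed little, and Spr fell 2.18-fold (152.2 ± 35.1 against 331.3 ± 14.0; log2 change −1.14, SE 0.16, adjusted p = 1.94e-06).

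In BH4 regeneration, the paralogs for the dehydratase step differed in level. Pcbd2 had 46.2, 32.2 and 26.7 normalised reads in toyocamycin samples, against 108.7, 140.4 and 122.9 in Control samples. All toyocamycin samples were under the lowest Control sample, and Pcbd2 fell 3.54-fold (35.0 ± 10.1 against 124 ± 15.9; log2 change −1.82, SE 0.28, adjusted p = 5.88e-06). Pcbd1, whose product also serves as a dimerization cofactor of the transcription factor HNF1, had 0, 3.39 and 2.43 in toyocamycin samples, against 1.81, 0.878 and 3.51 in Control samples. These Pcbd1 values are at the limit of detection and overlap (log2 change −0.22, SE 0.83, adjusted p = 0.835), so a difference was not detectable at this depth. The log2 ratio of Pcbd1 to Pcbd2, from normalised reads plus 1, a pseudocount that weighs heavily on the low Pcbd1 values, was −3.83 ± 1.50 in toyocamycin samples and −5.43 ± 0.739 in Control samples (SD, n = 3 each), a difference of 1.60 that did not pass (two-sided exact permutation test, p = 0.3, where 0.1 is the smallest p possible). No 50-base word of Pcbd1 or Pcbd2 occurs in annotated transcripts of other genes.

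Qdpr, which encodes the reductase that returns the cofactor to BH4, had 668.2, 575.1 and 480.8 normalised reads in toyocamycin samples, against 695, 641.5 and 543.3 in Control samples. These ranges overlap, and Qdpr did not pass (574.7 ± 93.7 against 626.6 ± 76.9; log2 change −0.13, SE 0.12, adjusted p = 0.341). Its direction depended on the scaling: the log2 change was 0.05 with quantile normalization, while with samples set to equal totals Qdpr was called lower (−0.48, adjusted p = 0.0021). An antisense gene, Gm42413, covers 18.6% of its exon bases, and no source used here says whether reads were counted by strand.

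The difference in Tph1 was larger than that in the gene for the rate-limiting enzyme of its cofactor. The log2 ratio of Tph1 to Gch1 within a sample, from normalised reads plus 1, was 2.40 ± 0.142 in toyocamycin samples and 5.31 ± 0.106 in Control samples (SD, n = 3 each). The ratio was lower by 2.90 on the log2 scale, with no overlap between groups (two-sided exact permutation test, p = 0.1, the smallest possible with 3 against 3 samples).

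**Figure D2:**
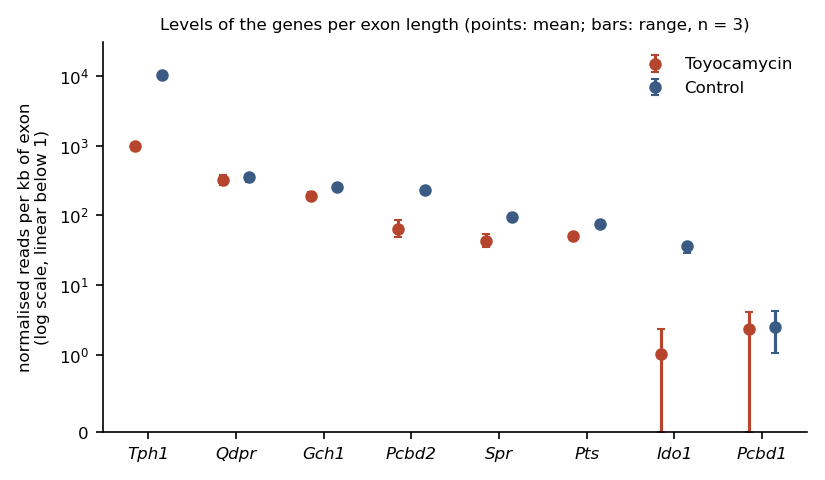
Mean level per kilobase of exon (y axis, normalised reads per kb, log scale that turns linear below 1) of 8 of the 9 genes in toyocamycin (red) and Control (blue) samples, with bars from the lowest to the highest sample (n = 3). Tph1 is at the top in both groups, at 998 with toyocamycin and 10124 in Control; Ddc, with 1 read in all 6 samples, is left out.

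Per kilobase of exon, Tph1 had the highest level of the 9 genes in both groups, at 998 ± 53.7 in toyocamycin samples and 10124 ± 209 in Control samples. With toyocamycin, Qdpr followed at 321 ± 52.4 and Gch1 at 187 ± 24.0. Next came Pcbd2 at 64.2 ± 18.4, Pts at 49.8 ± 4.18 and Spr at 42.9 ± 9.89, and neighbours among these 3 overlapped. Pcbd1 at 2.37 ± 2.14, Ido1 at 1.02 ± 1.19 and Ddc, with its single read, came last and overlapped too. In Control the order was Qdpr at 350 ± 43.0, Gch1 at 253 ± 23.4, Pcbd2 at 227 ± 29.1, Spr at 93.5 ± 3.94, Pts at 75.1 ± 4.63 and Ido1 at 35.9 ± 6.16, and of these neighbours only Gch1 and Pcbd2 overlapped. The middle of the order depends on which length is used. With the longest coding transcript in place of all exons, Pts stood above Spr and Pcbd2 in both groups (290 ± 24.4 in toyocamycin samples, 438 ± 27.0 in Control samples). Gch1 then stood above Qdpr, though with toyocamycin their ranges overlapped, while Tph1 stayed at the top and Ddc at the bottom.

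By the distance of centred log2 values over the 6 samples, the genes with a pattern closest to that of Tph1 among 9913 compared were Knstrn, Wdr90, Phf19, Adamts10 and Dennd1c, with distances of 0.147 to 0.199. Knstrn, which encodes a spindle protein, averaged 163.9 ± 16.1 in toyocamycin samples and 1686 ± 50.7 in Control samples, 10.3-fold lower. The other 4 were 9.20-fold to 10.1-fold lower. With 6 samples in 2 groups this likeness mostly reflects the size of the group difference.

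Ido1 (chromosome 8, 24584136 to 24597009, minus strand) had 1.32, 4.23 and 0 normalised reads in toyocamycin samples, against 52.6, 72.8 and 71.1 in Control samples. These stand for 1, 5 and 0 reads in toyocamycin samples and 58, 83 and 81 reads in Control samples, so the gene was clearly present in Control and near the limit of detection with toyocamycin. Ido1 fell (adjusted p = 2.73e-07), and its log2 change of −4.84 (SE 0.59) was −5.43 without toyocamycin replicate 2 and −4.24 without toyocamycin replicate 3. Of 11 macrophage and dendritic cell markers, 8 were above the limit in both groups, among them Lyz2, Cd68 and Xcr1. The sum of all 11, most of it from these 3 genes, was 2623 to 3107 in toyocamycin samples and 1861 to 2111 in Control samples. Adgre1, Fcgr1 and Flt3 were at or below the limit in both groups. Of the 10 tested, 3 were higher with toyocamycin (Cd68, Xcr1 and Zbtb46), 0 were lower and 7 did not pass. Over all genes tested, 32.8% were called higher and 33.1% lower. The part of macrophages and dendritic cells in the Ido1 level was not tested.

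Beside the 9 genes, 65 genes of their pathways were listed by role, with earlier results of these data known, and 42 of them were tested. Of these 42, 7 were higher, 21 lower and 14 did not pass, where 32.8% of all genes tested were called higher and 33.1% lower. Some of those named in the next paragraphs are below the level of 50 normalised reads set for naming and were picked after their values were seen: Maob, Slc29a4, Htr2b, Dnajc12, Ido2, Qprt and Slc6a19. Afmid and Wars2, outside the 3 largest changes of their lists, were picked in the same way, as were the genes given as not called or not tested.

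**Figure D3:**
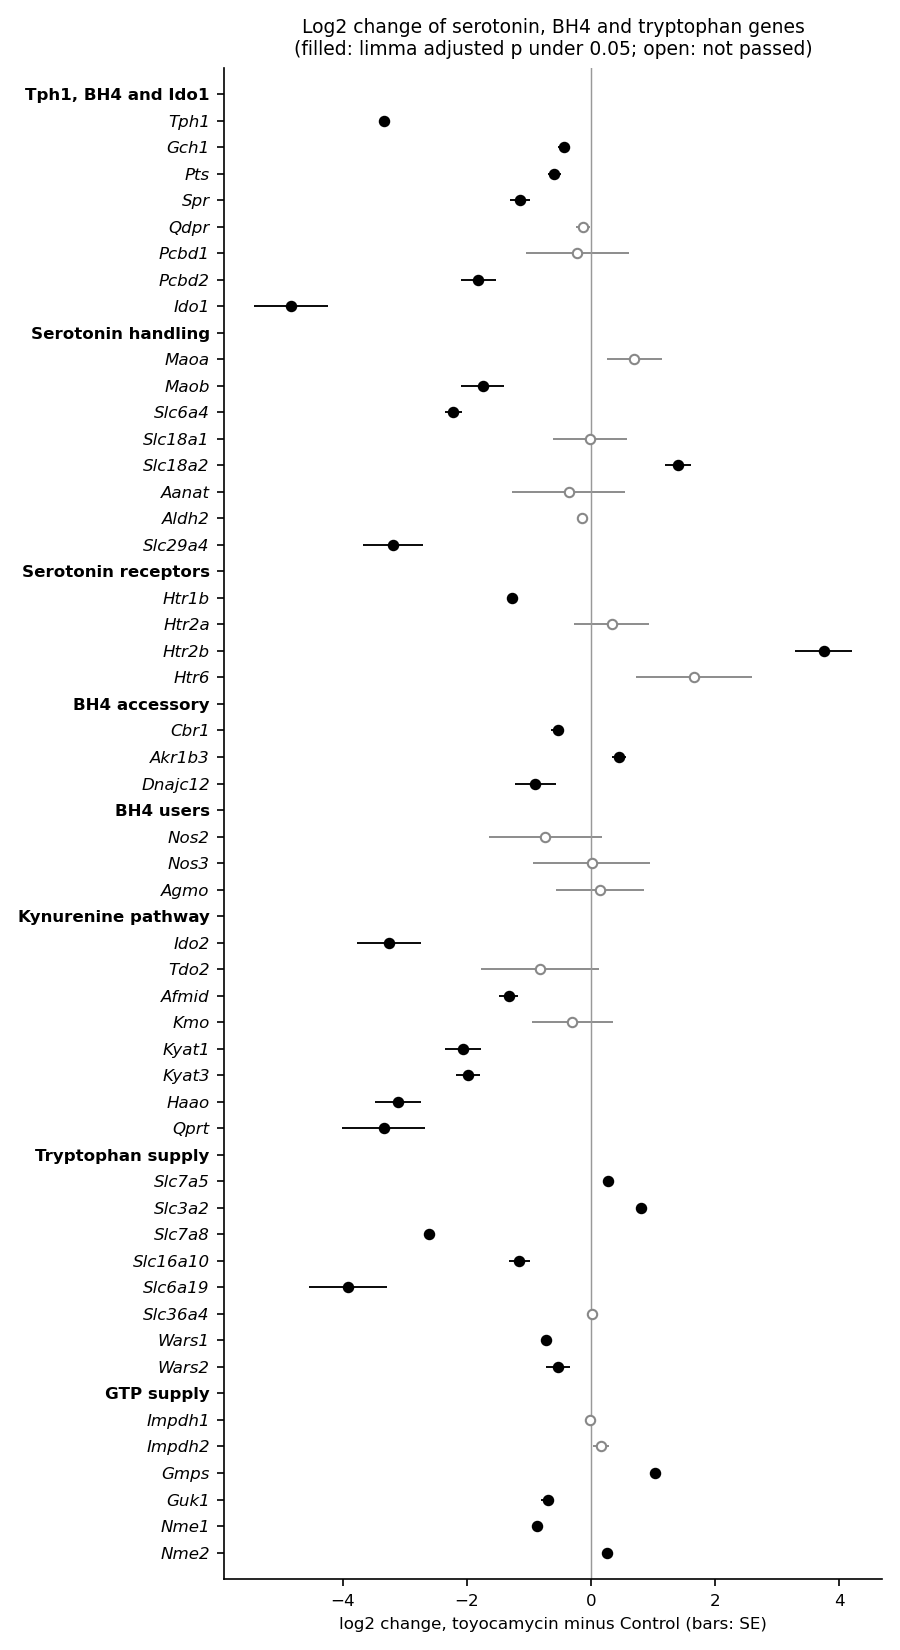
Log2 change (x axis, toyocamycin minus Control, on the log2 scale of normalised reads plus 1) with its SE for the tested genes shown, grouped by role; filled points passed the limma test at an adjusted p under 0.05 and open points did not. Most filled points are left of 0, while Slc18a2, Htr2b, Akr1b3, Slc7a5, Slc3a2, Gmps and Nme2 are right of it. Akr1b3, Slc7a5 and Nme2 are not called with equal totals, and Slc7a5 and Nme2 are called lower with quantile normalization.

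Of 11 serotonin handling genes listed, 8 were tested: 3 lower, 1 higher and 4 that did not pass. Over all genes tested, 33.1% were called lower and 32.8% higher. The median log2 change of the 8 was −0.25, where that of all genes was −0.03. Slc6a4, which encodes the serotonin uptake transporter SERT, had 128.1, 101.6 and 111.7 normalised reads in toyocamycin samples, against 502.9, 548.5 and 541.5 in Control samples. It fell 4.67-fold with no overlap (log2 change −2.22, SE 0.14, adjusted p = 5.28e-12). Slc18a2, which encodes the vesicular monoamine transporter VMAT2, had 192.8, 201.6 and 165.1 in toyocamycin samples, against 54.4, 77.2 and 81.6 in Control samples. It rose 2.62-fold (log2 change 1.40, SE 0.21, adjusted p = 5.6e-06), against the direction of Tph1 and Slc6a4. Slc29a4, a low-affinity monoamine transporter gene, averaged 9.69 ± 6.25 in toyocamycin samples and 81.7 ± 13.5 in Control samples, a log2 change of −3.19 (adjusted p = 5.55e-06) that was −2.53 without toyocamycin replicate 1. Maob, which encodes a monoamine oxidase, averaged 19.6 ± 6.01 in toyocamycin samples and 66.5 ± 5.21 in Control samples (adjusted p = 0.000156). Its paralog Maoa averaged 33.5 ± 11.1 and 21.4 ± 10.2 in the same order and did not pass (adjusted p = 0.18). Aanat and Asmt, which make melatonin from serotonin, were below the limit in both groups.

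Among 14 serotonin receptor genes, 8 were at 0 in every sample and 4 were tested. Htr1b had 1119, 1229 and 1093 normalised reads in toyocamycin samples, against 2955, 2775 and 2576 in Control samples. It fell 2.41-fold without overlap (log2 change −1.27, SE 0.068, adjusted p = 4.78e-13). Htr2b had 97.7, 100.8 and 61.9 in toyocamycin samples, against 9.06, 6.14 and 2.63 in Control samples. It rose, with all toyocamycin samples far above Control (log2 change 3.75, SE 0.46, adjusted p = 2.49e-07). Both genes share exon bases with a gene on the opposite strand, whose reads cannot be told apart here without the strand setting. Psmd1 covers 11.8% of Htr2b, with means of 6010 in toyocamycin samples and 5494 in Control samples, and D430036J16Rik covers 18% of Htr1b, with means of 387 and 969 in the same order. Htr2a (7.73 ± 0.878 in toyocamycin samples, 6.47 ± 3.61 in Control samples) and Htr6 did not pass.

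**Figure D4:**
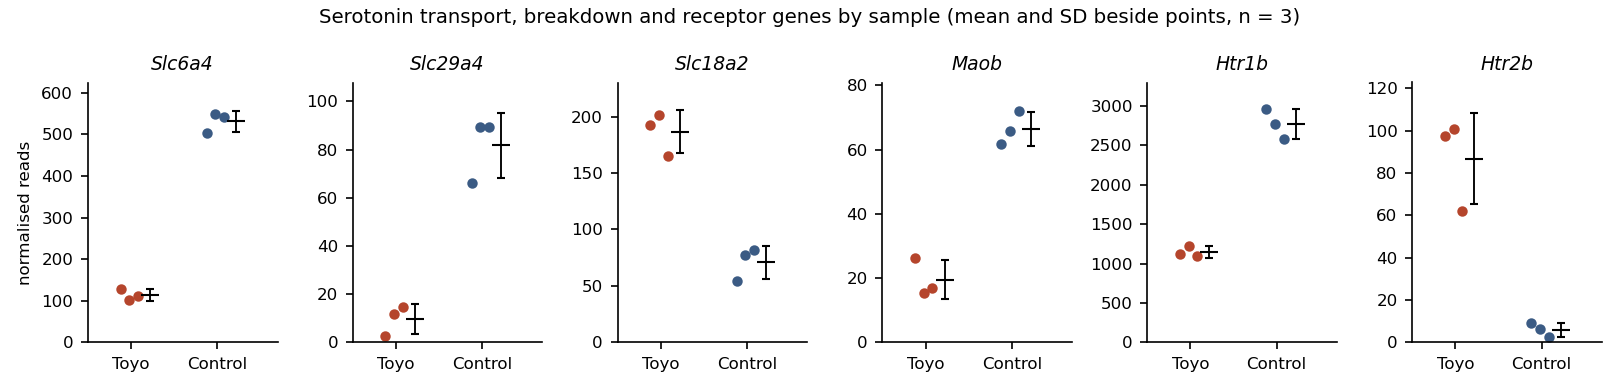
Normalised reads (y axis, from 0, own scale for each gene) of 6 serotonin transport, breakdown and receptor genes in toyocamycin (Toyo, red) and Control (blue) samples, with the mean and SD (n = 3) beside the points. Slc6a4, Slc29a4, Maob and Htr1b are lower with toyocamycin and Slc18a2 and Htr2b higher. The groups do not overlap in any of these 6 called genes, where 69.1% of all genes tested did not overlap.

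Of 5 genes that assist BH4 supply or BH4-dependent enzymes, 4 were tested, with 3 lower and 1 higher. Over all genes tested, 33.1% were called lower and 32.8% higher. The median log2 change of the 4 was −0.72, where that of all genes was −0.03. Cbr1, a carbonyl reductase gene, fell 1.46-fold (adjusted p = 0.000229), a call that ended with quantile normalization (−0.22). Akr1b3, an aldose reductase gene, rose 1.37-fold (adjusted p = 0.00211), which ended with equal totals (0.10). Dnajc12, a co-chaperone of the aromatic amino acid hydroxylases, averaged 32.5 ± 7.35 in toyocamycin samples and 61.8 ± 14.3 in Control samples (adjusted p = 0.0202). That call ended with quantile normalization and without toyocamycin replicate 1, Control replicate 1 or Control replicate 3 (adjusted p = 0.061 to 0.0977 for these 3). Gchfr, whose product inhibits GCH1, had 3, 1 and 0 reads in toyocamycin samples and 1, 0 and 0 reads in Control samples.

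The other BH4-dependent enzymes were at the edge of detection. Th and Nos1 had no read in any sample. Per kilobase of exon, Nos3 had 1.10 ± 1.18 in toyocamycin samples and 1.01 ± 0.907 in Control samples and Agmo 0.757 ± 0.498 and 0.699 ± 0.517 in the same order. None of the 3 that were tested passed (Nos2, Nos3 and Agmo). Per length, Tph1 was the most abundant of the BH4-dependent enzyme genes by a wide margin in both groups.

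Of 12 other genes of the kynurenine pathway, 8 were tested, 6 were lower with toyocamycin, 0 higher and 2 did not pass, where 33.1% of all genes tested were called lower. Their median log2 change was −2.02, where that of all genes was −0.03. Haao, which encodes the dioxygenase that forms the precursor of quinolinate, had 10.6, 24.6 and 8.50 normalised reads in toyocamycin samples, against 117.8, 130.8 and 115 in Control samples (log2 change −3.11, SE 0.37, adjusted p = 2.03e-07). Kyat1 and Kyat3 encode transaminases that form kynurenate. Kyat1 fell 4.23-fold (31.1 ± 9.27 in toyocamycin samples and 131 ± 25.6 in Control samples) and Kyat3 fell 3.93-fold (67.4 ± 13.6 and 265 ± 16.5 in the same order). Afmid, the formamidase that follows IDO1, fell 2.50-fold to 171 ± 34.2 in toyocamycin samples, against 428 ± 33.0 in Control samples, but it shares 44.2% of its exon bases with the overlapping gene Gm20708. Tk1, on the opposite strand, covers 2.35% of the Afmid exon bases, with means of 109.5 in toyocamycin samples and 1305 in Control samples. Without the strand setting, reads from this overlap cannot be told apart. Ido2, which lies beside Ido1 on chromosome 8, averaged 4.83 ± 3.12 in toyocamycin samples and 49.0 ± 3.35 in Control samples (adjusted p = 8.34e-06). Qprt, which turns quinolinate into a precursor of NAD, had 2, 1 and 0 reads in toyocamycin samples and 23, 16 and 23 reads in Control samples (adjusted p = 0.000154). Kmo and Tdo2 did not pass, and Kynu, Aadat and Acmsd had no read in any sample.

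Of 8 genes tested that bring in or charge tryptophan, 2 were higher, 5 lower and 1 did not pass. Over all genes tested, 32.8% were called higher and 33.1% lower. The median log2 change of the 8 was −0.63, where that of all genes was −0.03. Slc7a8, which encodes the light chain LAT2 of a neutral amino acid exchanger, had 982.5, 1078 and 953.2 normalised reads in toyocamycin samples, against 6191, 6327 and 5953 in Control samples. It fell 6.13-fold (log2 change −2.62, SE 0.061, adjusted p = 1.46e-18). Slc3a2, which encodes the heavy chain shared by LAT1 and LAT2, rose 1.74-fold, with means of 8544 ± 642 in toyocamycin samples and 4909 ± 263 in Control samples (adjusted p = 9.63e-11). Slc7a5, the LAT1 light chain gene, was 1.20-fold higher (3041 ± 43.4 against 2526 ± 73.0, adjusted p = 0.000198). That direction depended on the scaling, with a log2 change of 0.27 as deposited, −0.08 with equal totals, where it was not called, and −0.14 with quantile normalization, where it was called lower (adjusted p = 0.0138). Slc16a10, an aromatic amino acid transporter gene, fell 2.25-fold to 108 ± 11.9 in toyocamycin samples, against 243 ± 14.0 in Control samples. Slc6a19, an epithelial neutral amino acid transporter gene, averaged 1.94 ± 1.75 in toyocamycin samples and 38.0 ± 13.1 in Control samples (adjusted p = 1.15e-05). Its log2 change of −3.92 was −3.27 without toyocamycin replicate 1. Wars1, the cytosolic tryptophanyl-tRNA synthetase gene, fell 1.66-fold (1238 ± 40.4 against 2055 ± 71.6, adjusted p = 1.26e-09). Its mitochondrial counterpart Wars2 had a log2 change of −0.53 (adjusted p = 0.0194), a call that ended with quantile normalization (0.03) and without toyocamycin replicate 3 (−0.42) or Control replicate 2 (−0.44).

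**Figure D5:**
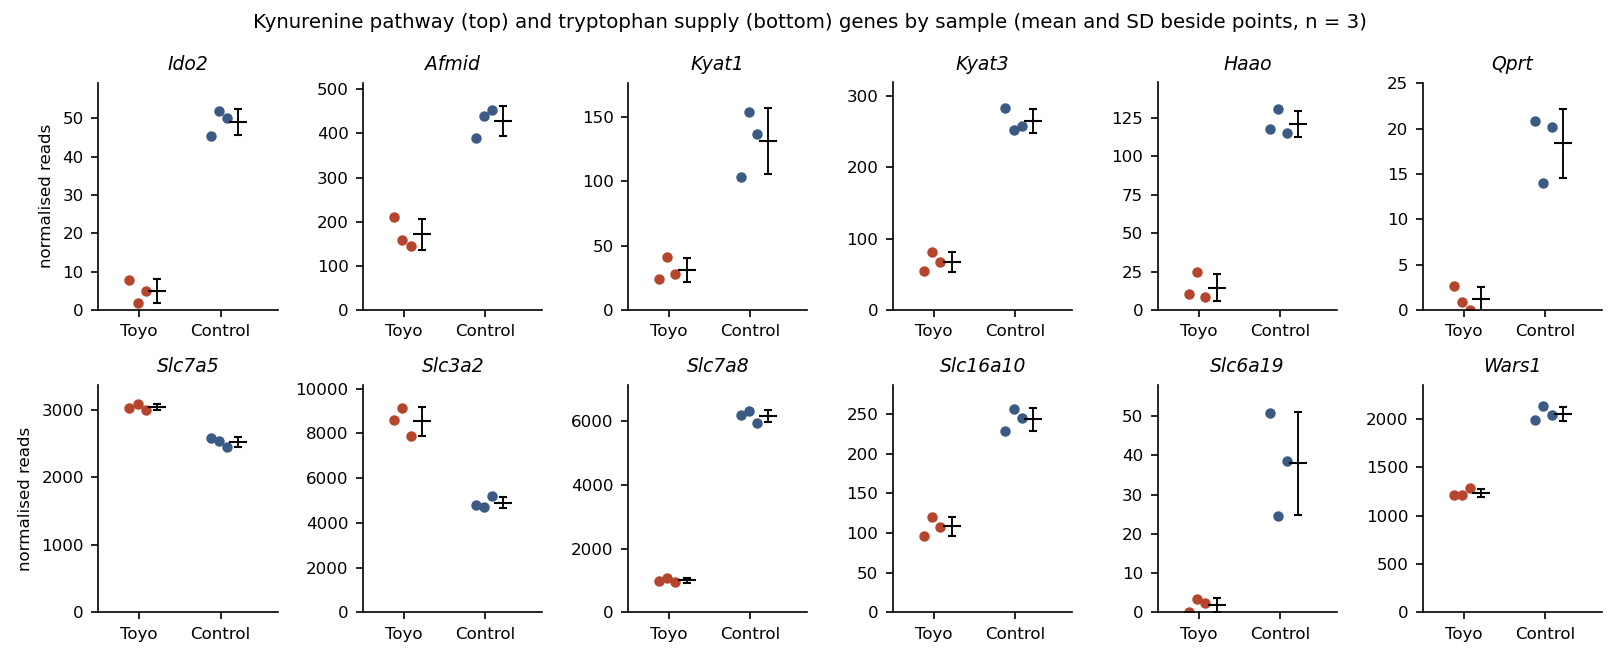
Normalised reads (y axis, from 0, own scale for each gene) of 6 kynurenine pathway genes (top row) and 6 tryptophan transport and charging genes (bottom row) in toyocamycin (Toyo, red) and Control (blue) samples, with the mean and SD (n = 3) beside the points. All 6 in the top row are lower with toyocamycin. In the bottom row Slc7a5 and Slc3a2 are higher and the other 4 lower. Slc7a5 is not called with equal totals and is called lower with quantile normalization.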

How the data were processed

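RNA sequencing of 6 mouse ILC2 samples was analysed. The authors used cutadapt 4.7, FastQC and build mm10, per the submitters' processing notes; no source used here names the aligner, counter, strand setting or annotation. The deposited values are a normalised signal and not FPKM: in each column 100% of the values are whole multiples (tolerance 0.01 reads) of 1 step that is the same for all genes. Reads were recovered from it. Of values of 1 to 10 reads, 67.2% to 71.3% were even, so mates of a pair may have been counted separately, and limits from counts cover counting error only. No sample was a copy of another: within groups, chi-square over its degrees of freedom was 3.87 to 7.39.

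Genes with a mean of at least 1 were tested as log2(value + 1) with limma 3.58.1 (mean-variance trend, R 4.3.3), two-sided, toyocamycin against Control, at a Benjamini-Hochberg adjusted p under 0.05. The code was tested on simulated data in which only a small set of well-expressed genes changed. That test did not cover changes at low counts or in most genes. Alternatives were other pseudocounts, filters and scalings, edgeR 4.0.16 and DESeq2 1.42.0 on the recovered reads, a replicate block and leaving out each sample. All 9 genes were to be named; of each pathway list, up to 3 called genes per direction with a mean of at least 50; and the 5 genes nearest to Tph1. The genes and lists were chosen with earlier results of these data known. Lengths and overlaps are from GENCODE M21 (GRCm38), promoters from RefSeq. A few listed genes are counted but not reported here by name.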

Additional observations from a re-analysis of the deposited data

How the results depend on the processing

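Under the 15 alternatives run for each, Tph1 stayed lower and called (log2 change −3.73 to −3.30), and so did Gch1 (−0.79 to −0.36), Spr (−1.49 to −0.66), Pcbd2 (−2.17 to −1.34) and Ido1 (−5.43 to −3.40). Lower calls among the 9 genes numbered 5 to 7, and 6 with edgeR and with DESeq2. Qdpr turned to 0.05 with quantile normalization; Pcbd1 ran from −0.64 to 0.43 with 1 sample left out, above 0 without toyocamycin replicate 1 (0.43) and without Control replicate 3 (0.10). Pathway genes called higher numbered 7, and over the alternatives 4 to 8, with 4 under equal totals, where Akr1b3, Slc7a5 and Nme2 were not called. Equal totals moved the median of all genes from −0.03 to −0.35 and gave 4039 higher and 6895 lower genes in place of 5316 and 5374. The difference in the log2 ratio of Tph1 to Gch1 (−2.90) ran from −2.97 to −2.82, and that of Pcbd1 to Pcbd2 (1.60) from 1.15 to 2.47. Equal replicate numbers did not pair the samples (correlations of deviations −0.041 to 0.023); with the replicate block, 5272 genes were higher and 5298 lower, 6 of the 9 genes were called and Tph1 was at −3.34. Depth limits Ddc and Pcbd1 in both groups and Ido1 with toyocamycin.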

Other observations

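GTP, the starting material of BH4, is made by IMP dehydrogenase, GMP synthetase and guanylate and nucleoside diphosphate kinases. Of 6 such genes tested, 2 were higher, 2 lower and 2 did not pass, where 32.8% of all genes tested were called higher and 33.1% lower. Gmps, the GMP synthetase gene, rose 2.04-fold (4284 ± 115 in toyocamycin samples, 2100 ± 105 in Control samples; SD, n = 3 each; limma adjusted p = 7.35e-13). Guk1, the guanylate kinase gene, fell 1.62-fold (305 ± 32.3 in toyocamycin samples, 496 ± 22.3 in Control samples; adjusted p = 1.07e-05) and Nme1, a nucleoside diphosphate kinase gene, fell 1.82-fold (546 ± 39.0 in toyocamycin samples, 993 ± 24.1 in Control samples). Nme2, its neighbour, had a log2 change of 0.26 that was −0.09 with equal totals, where it was not called, and −0.17 with quantile normalization, where it was called lower (adjusted p = 0.00392). The annotated gene Gm20390 covers 48.9% of the exon bases of Nme2 and 12.5% of those of Nme1. Impdh1, at 3225 ± 110 in toyocamycin samples and 3273 ± 103 in Control samples, did not pass as deposited (adjusted p = 0.757) but was called lower with equal totals (log2 change −0.37, adjusted p = 1.43e-06) and also after quantile normalization (−0.46, adjusted p = 2.82e-07). Impdh2 did not pass as deposited (log2 change 0.16) and was called higher with quantile normalization (0.55, adjusted p = 0.00123).

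DDC also serves catecholamine synthesis. Th, Dbh and Pnmt had no read in any sample.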
